A study of Arabidopsis thaliana with 9 samples.

Results

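The genes described here drive or carry out the differentiation of xylem vessels, the water-conducting cells of the plant. They are the 7 VASCULAR-RELATED NAC-DOMAIN genes VND1 to VND7, the MYB genes MYB46 and MYB83, and the protease gene XCP1, chosen by name as 10 of the 33201 rows of the expression table. Expression was measured by RNA sequencing in roots of Arabidopsis thaliana, ecotype Col-0, carrying an XVE:PAN transgene. In XVE lines a chimeric activator that responds to estradiol switches on the transgene, here the bZIP transcription factor PERIANTHIA (PAN). All plants grew for 5 days in total on medium with 1% sucrose and spent the last 0, 6 or 24 h of this on the same medium plus β-estradiol at 10 uM. Each time had 3 biological replicates, 9 samples in all, and the labels do not say how many independent transgenic lines they came from. The labels call the source whole root in one field and root cut about 0.5 cm from the tip in another. Mock-treated plants and plants without the transgene were not analysed here, so PAN induction, exposure to estradiol, transfer and time change together.

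Vessel cells deposit a thick secondary wall of cellulose, xylan and lignin in bands or pits and then die, leaving a hollow tube. VND genes encode NAC transcription factors that sit at the top of this programme; VND7 is best known from protoxylem, the first vessels to mature in the root, and VND6 from metaxylem. VND proteins activate MYB46 and MYB83, which act redundantly as a second layer and switch on wall synthesis genes. XCP1 encodes a papain-like cysteine protease of the vacuole that helps to digest the contents of the dying vessel cell, and it is a known direct target of this network.

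Promoter sequences of XCP1, VND1 and VND2 are shown because they hold the DNA words through which this network and the class of bZIP factors that includes PAN are known to act. The sequences are the 300 bases before the annotated gene start, read from TAIR10.1 with its RefSeq annotation, 5′ to 3′ on the strand of the gene, with the matched words in capitals. The XCP1 window is chr4:16810182-16810481 on the plus strand, the VND1 window chr2:7851607-7851906 on the minus strand and the VND2 window chr4:17114142-17114441 on the minus strand.
XCP1: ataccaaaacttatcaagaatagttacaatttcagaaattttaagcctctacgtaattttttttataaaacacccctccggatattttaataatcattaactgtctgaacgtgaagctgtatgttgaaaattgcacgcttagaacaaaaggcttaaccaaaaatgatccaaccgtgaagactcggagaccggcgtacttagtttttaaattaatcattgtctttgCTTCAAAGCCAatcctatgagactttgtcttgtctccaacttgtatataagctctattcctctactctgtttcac
VND1: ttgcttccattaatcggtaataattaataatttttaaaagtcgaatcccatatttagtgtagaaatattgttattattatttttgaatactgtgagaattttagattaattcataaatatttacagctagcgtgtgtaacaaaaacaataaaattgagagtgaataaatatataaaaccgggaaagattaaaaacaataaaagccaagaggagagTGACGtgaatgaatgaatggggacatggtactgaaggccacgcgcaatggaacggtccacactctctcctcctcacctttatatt
VND2: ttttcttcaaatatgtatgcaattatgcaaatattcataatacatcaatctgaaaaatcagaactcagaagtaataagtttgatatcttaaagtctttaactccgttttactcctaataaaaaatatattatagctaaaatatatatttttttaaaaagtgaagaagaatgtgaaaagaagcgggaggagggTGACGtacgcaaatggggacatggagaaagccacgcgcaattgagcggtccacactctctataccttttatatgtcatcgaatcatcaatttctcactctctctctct
The capitals in XCP1 mark CTTCAAAGCCA, a match to the tracheary element-regulating cis-element (TERE), searched on both strands as CTT and AAAGC with any base between them, then any base and A. It begins 75 bases before the gene start. Among all promoters searched, 118 of 27443 (0.43%) held this word, and XCP1 was the 1 member of the 10 that did. The capitals in VND1 and VND2 mark TGACG, the core word of TGA-class bZIP factors, which begins 85 bases before the start of VND1 and 108 bases before that of VND2. MYB46 also held it, on the opposite strand and 280 bases before its start, and 21.3% of all promoters (5843 of 27443) held TGACG on either strand. The third word searched was the secondary wall MYB-responsive element (SMRE), which reads ACC, then A or T, then A, then A or C, then C or T. It was found in VND4, VND7 and MYB83 and in 33.9% of all promoters. No match overlapped another in these windows. A match describes the letters only and does not show binding. VND1 and VND2 also shared an exact run of 15 bases, cggtccacactctct, close to their starts, and VND4 and VND5 shared a run of 20 bases, gctggtgggtggtaatggat. These were the longest exact runs among the 45 pairs of member promoters.

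The table held 1 value per gene and time, combined by the authors from the 3 replicates before deposit, so the values have no replicate error of their own and the read depth is unknown. The values were taken as FPKM, fragments scaled to transcript length and library size. Only the q-values that the authors deposited reflect the replicates, and the test behind them is not described. A gene was called changed when its q-value was below 0.05 and its mean over the 3 times was at least 1 FPKM, which 17841 rows reached. Log2 fold changes are log2 ratios of these values, later time over earlier time, and equal those of the authors' deposited table. PAN itself had 1.03, 688 and 385 FPKM at 0, 6 and 24 h. Among markers of other root cells, the 6 endodermis genes summed to 2230, 1704 and 1613 FPKM at 0, 6 and 24 h, the 6 root hair genes to 1855, 1393 and 1032, and the 6 cell division genes to 40.9, 56.9 and 93.4. The 7 phloem genes, markers of the other vascular tissue, summed to 2.68, 2.57 and 3.98 FPKM. NEN4, a nuclease of developing sieve elements, was listed at 0 at 0 h. In bulk tissue, fewer cells of a type and less RNA per cell cannot be told apart.

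The vessel regulators were among the weakly expressed genes at every time, while their target XCP1 was well expressed. The 9 transcription factors ranged from 0.103 FPKM for VND6 at 24 h to 1.33 FPKM for MYB46 at 24 h. XCP1 had 19.3, 19.0 and 23.3 FPKM at 0, 6 and 24 h, which was 20.3, 16.1 and 17.5 times the level of the highest transcription factor at the same times. The summed level of VND1 to VND7 was 3.24, 2.52 and 4.22 FPKM at 0, 6 and 24 h. All 10 members had a value above 0 at every time. For comparison, the lowest percentile of values above 0 among rows with transcripts of 1200 to 2000 bp lay at 0.0269, 0.0230 and 0.0208 FPKM at 0, 6 and 24 h.

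**Figure D1:**
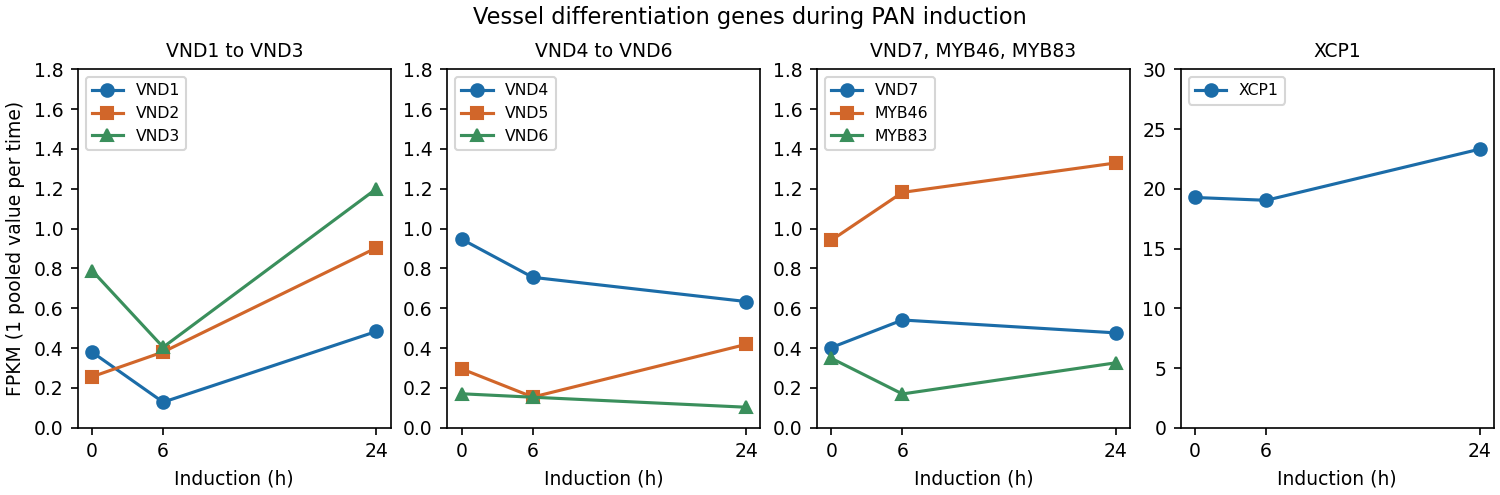
Each panel plots the pooled FPKM value of members against hours of induction on a linear axis from 0, with 1 point per time and no error bars because replicate values were not given. The 9 transcription factors stay at or below 1.33 FPKM, and XCP1, on its own axis, lies between 19.0 and 23.3 FPKM.

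Of the 10 members, 2 passed the filter on low values, MYB46 with a mean of 1.15 FPKM and XCP1 with 20.5. The other 8, the 7 VND genes and MYB83, had means of 0.143 to 0.798 FPKM. Their low level limits what the q-values can show. Among rows with a mean over 0.1 and up to 0.5 FPKM, 99.8% had a q-value of exactly 1 for 24 h versus 0 h, and among rows over 0.5 and up to 1 FPKM 71.3% did. Of rows over 20 FPKM, 0.0436% did. VND1, VND2, VND4, VND5, VND6, VND7 and MYB83 had a q-value of exactly 1 in all 3 comparisons, which for genes this low does not show that their levels were alike.

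**Figure D2:**
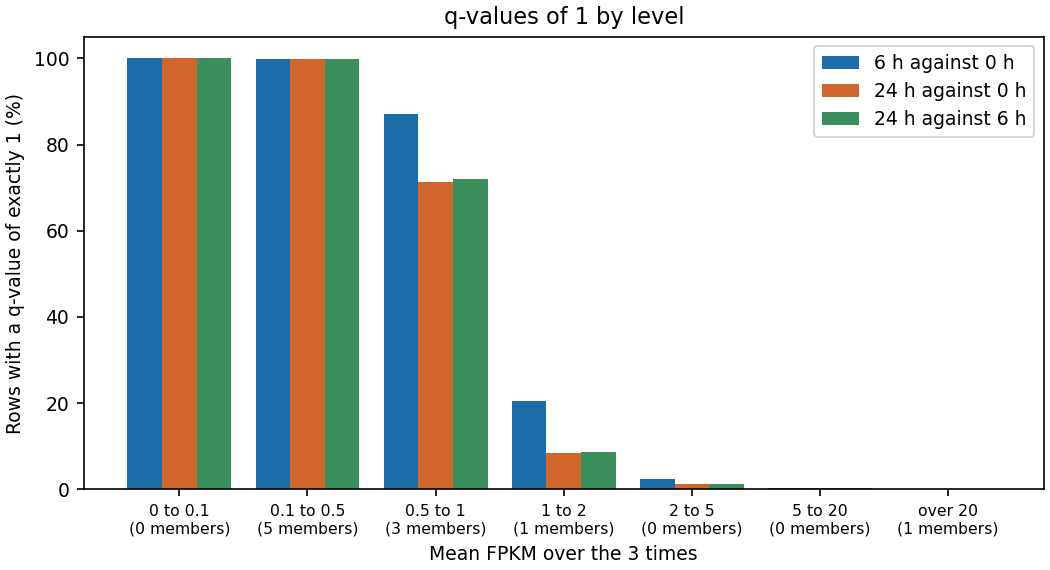
Bars give the share of rows whose q-value in the authors' deposited table is exactly 1, by the mean FPKM over the 3 times and by comparison, with the number of members in each class under the axis. The share is 71.3% to 87.2% between 0.5 and 1 FPKM and 8.51% to 20.6% between 1 and 2 FPKM, and 8 of the 10 members lie below 1 FPKM.

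VND1 to VND3, NAC factors known from early vascular development and from xylem formation in response to cues such as light, had their highest values at 24 h. VND1 (AT2G18060, chr2:7847967-7851606, minus strand) had 0.380, 0.129 and 0.484 FPKM at 0, 6 and 24 h. On the log2 scale VND1 differed by -1.56 at 6 h and by 0.35 at 24 h relative to 0 h, and by 1.91 between 24 h and 6 h. VND1 was thus lowest at 6 h and stood close to its starting value at 24 h. VND2 (AT4G36160, chr4:17110645-17114141, minus strand) had 0.256, 0.381 and 0.904 FPKM at 0, 6 and 24 h. Its log2 fold change for 24 h versus 0 h was 1.82, a ratio of 3.52, which was the largest ratio to 0 h among the members. VND2 showed no dip at 6 h, unlike VND1 and VND3, although no test separates these patterns.

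VND3 (AT5G66300, chr5:26479766-26481528, minus strand) was the single member with any q-value below 0.05. It had 0.790, 0.405 and 1.20 FPKM at 0, 6 and 24 h. For 24 h versus 6 h its log2 fold change was 1.57, a ratio of 2.97 (q = 0.0463 in the authors' deposited table). Relative to 0 h its log2 fold change was 0.60 at 24 h (q = 0.355 there) and -0.96 at 6 h (q = 1). VND3 was not called, since its mean of 0.798 FPKM lies below the filter of 1. It would be called for 24 h versus 6 h without the filter, where 21.5% of all 33201 rows had a q-value below 0.05.

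VND4 to VND6 formed a mixed group. VND4 (AT1G12260, chr1:4162826-4165928, minus strand) had 0.947, 0.756 and 0.634 FPKM at 0, 6 and 24 h, the highest transcription factor of the set at 0 h. VND5 (AT1G62700, chr1:23215953-23219209, minus strand), whose promoter shares the 20-base run with VND4, had 0.296, 0.155 and 0.419 FPKM. VND4 therefore had its lowest value at 24 h, whereas VND5 had its highest value there. VND6 (AT5G62380, chr5:25050152-25052054, plus strand), the metaxylem regulator, was the lowest member by its mean, with 0.171, 0.154 and 0.103 FPKM at 0, 6 and 24 h. Its log2 fold change for 24 h versus 0 h was -0.72. VND7 (AT1G71930, chr1:27074702-27077991, plus strand), the protoxylem regulator, had 0.403, 0.541 and 0.477 FPKM at 0, 6 and 24 h. The highest VND7 value was 1.34 times the lowest, the smallest ratio among the VND genes.

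Of the MYB pair, MYB46 (AT5G12870, chr5:4062666-4065075, minus strand) had 0.942, 1.18 and 1.33 FPKM at 0, 6 and 24 h. Its log2 fold change for 24 h versus 0 h was 0.50 (q = 0.461 in the authors' deposited table). For 24 h versus 6 h it was 0.17 with a q-value of 0.829 there. MYB83 (AT3G08500, chr3:2576444-2578276, minus strand), its redundant partner, was lower at each time, with 0.349, 0.170 and 0.326 FPKM. MYB83 thus had its lowest value at 6 h, the time at which MYB46 stood between its other values.

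XCP1 (AT4G35350, chr4:16810482-16812077, plus strand), the protease whose promoter holds the TERE match, was the most highly expressed member and the one whose level limits the test least. On the log2 scale XCP1 differed by -0.018 at 6 h and by 0.27 at 24 h relative to 0 h, and by 0.29 between 24 h and 6 h. The q-values in the authors' deposited table were 0.966, 0.338 and 0.305 in the same order, so no difference passed the threshold. The largest ratio between its 3 values was 1.22. Rows with transcripts as long as that of XCP1 (1340 bp) had a median log2 fold change of 0.25 for 24 h versus 0 h, and 0.02 of the XCP1 value remained after this was subtracted. Quantile normalization left XCP1 at 0.32 and median-of-ratios scaling at 0.20. The same subtraction of the length trend left 0.19 of the MYB46 value of 0.50.

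None of the members was called in any of the 3 comparisons. For 24 h versus 6 h, 0 of the 2 members above the filter were called, where 39.4% of all rows above the filter were. Relative to 0 h, the count was 0 of 2 at 24 h, where 47.7% of rows were called, and 0 of 2 at 6 h, where 11.3% were. With 2 members these counts say little beyond the single genes. An unadjusted p-value could be recovered only where the pooled q-value was below 1. None could be recovered for VND1, VND2, VND4 to VND7 and MYB83 in any comparison. Nor could one be recovered for VND3 and MYB46 at 6 h versus 0 h. At 6 h, only XCP1 of the 2 members above the filter thus had one. Among VND3, MYB46 and XCP1, the recovered p-value lay below 0.05 only for VND3 at 24 h versus 6 h (0.015). By sign alone, which no test backs here, 3 of 10 members were above their 0 h value at 6 h and 7 of 10 were at 24 h, and 7 of 10 were higher at 24 h than at 6 h. These comparisons share libraries. Median log2 fold changes over all rows above the filter were 0.02, 0.05 and 0.03 in this order. Rows with means between 0.1 and 1 FPKM were themselves more often higher than lower at 24 h. Of these low rows, 54.6% were higher at 6 h and 61.3% at 24 h relative to 0 h, with medians of 0.10 and 0.35, and 59.9% were higher at 24 h than at 6 h, with a median of 0.27. Of the 8 members at this level, 2, 5 and 5 were higher in the same order. The 8 members with means between 0.1 and 1 FPKM lay within the middle 90% of rows of that level in every comparison. That range was -1.68 to 1.83 at 6 h and -1.97 to 2.74 at 24 h relative to 0 h, and -1.80 to 2.49 between 24 h and 6 h.

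**Figure D3:**
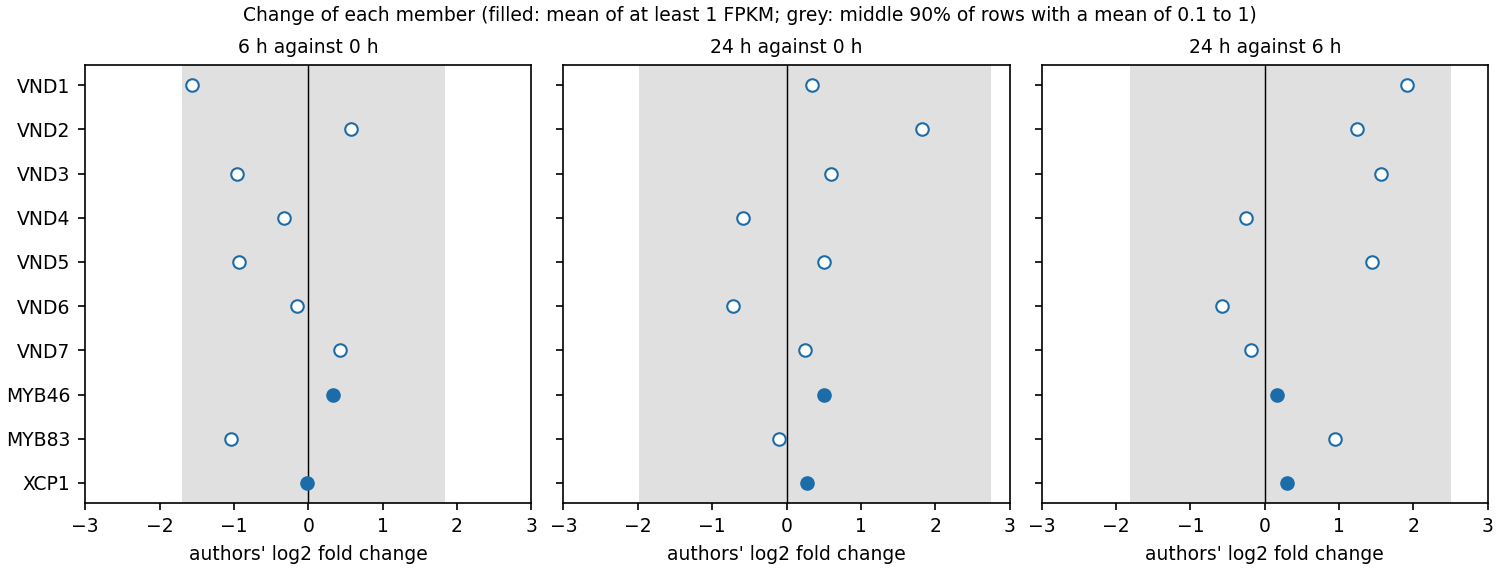
Points give the log2 fold change of each member in the authors' deposited table, filled for MYB46 and XCP1, whose mean is at least 1 FPKM. The grey band is the middle 90% of rows with a mean between 0.1 and 1 FPKM, and all open points fall inside it.

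Of 14 upstream vascular regulators, 11 had a mean of at least 1 FPKM, and 4 were called higher and 1 lower at 24 h versus 0 h. These 5 of 11 are close to the 47.7% of all rows called in that comparison (23.8% in each direction). ACL5, which makes thermospermine and is known to keep vessel cells from dying too early, had 4.27, 4.26 and 11.7 FPKM at 0, 6 and 24 h. ACL5 rose by a log2 fold change of 1.45 at 24 h versus 0 h (q = 0.000358 in the authors' deposited table). TMO5, a bHLH factor that promotes divisions of vascular precursor cells, rose by 1.17 at 24 h, with 6.18 FPKM against 2.75 at 0 h (q = 0.00148 in the authors' deposited table). LBD15, a LOB-domain factor, fell by 1.03, with 7.74 FPKM at 24 h against 15.8 at 0 h. For 6 h versus 0 h, T5L1, a close relative of TMO5, was the 1 gene of this list that was called, with a log2 fold change of 0.75 (q = 0.0351 in the authors' deposited table). This 1 of 11 is near the 11.3% of all rows called at 6 h.

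Of the known repressors of the programme, 6 lay above the filter, and 3 of these were called lower and none higher at 24 h versus 0 h, where 47.7% of all rows were called and 23.8% were called lower. VNI2, a NAC protein that binds VND proteins and blocks their activity, had 149, 145 and 64.4 FPKM at 0, 6 and 24 h. VNI2 fell by 1.21 on the log2 scale at 24 h (q = 0.000358 in the authors' deposited table). KNAT7, a homeodomain factor that represses secondary wall synthesis in fibres, fell by 1.01, with 10.9 FPKM at 24 h against 21.98 at 0 h. XND1, a NAC repressor of vessel differentiation, was below the filter, with 0.191, 0.616 and 1.44 FPKM and a q-value of 0.0690 for 24 h versus 0 h in the authors' deposited table.

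Among 15 further wall regulators, 9 lay below the filter. NST2 and SND1, both NAC factors, were listed at 0 at all 3 times. Of the 6 above the filter, 1 was called higher and 3 lower at 24 h versus 0 h, beside 23.8% of all rows in each direction. MYB58, an activator of lignin genes, had 1.36, 7.66 and 3.85 FPKM at 0, 6 and 24 h. It rose by 2.50 at 6 h and by 1.51 at 24 h versus 0 h, with q-values of 0.000358 and 0.00738 in the authors' deposited table. SND3 and MYB43 fell at 24 h by 1.07 and 0.68 with q-values of 0.0348 and 0.0212 there. MYB63, the other gene of this list called lower, fell by 0.56, with 11.7 FPKM at 24 h against 17.3 at 0 h (q = 0.0451 in the authors' deposited table). The SND3 change was -0.60 as log2(value + 1), and the MYB43 change was -1.03 without the length trend.

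Among wall synthesis genes known to act downstream of MYB46 and MYB83, the cellulose genes were not called, whereas some xylan and lignin genes were. Among 5 secondary wall cellulose genes, 0 were called in any comparison, against 47.7% of all rows for 24 h versus 0 h. CESA4, CESA7 and CESA8, the catalytic subunits of secondary wall cellulose synthase, had 3.05, 2.84 and 1.90 FPKM at 24 h against 4.16, 2.95 and 1.88 FPKM at 0 h, with q-values between 0.340 and 0.970 in the authors' deposited table. Of 8 xylan genes above the filter, 3 were called lower and none higher at 24 h versus 0 h. Of all rows, 23.8% were called in each direction. GUX2 and IRX10, glycosyltransferases of xylan, fell by 1.34 and 1.03 (both q = 0.000358 in the authors' deposited table). At 6 h versus 0 h, 1 of the 8, IRX9, was called lower, beside 7.35% of all rows. IRX9 had 4.76, 2.22 and 3.61 FPKM at 0, 6 and 24 h and fell by 1.10 at 6 h (q = 0.00441 in the authors' deposited table). Of 16 lignin genes, 6 were called lower and 1 higher at 24 h versus 0 h, beside 23.8% of all rows in each direction. The entry enzymes PAL1 and PAL2 fell by 0.74 and 1.22, to 361 and 108 FPKM at 24 h against 601 and 251 FPKM at 0 h, and removal of the length trend left the PAL1 change at -0.36. FAH1, the hydroxylase that leads to syringyl lignin, had 0.929, 1.55 and 4.75 FPKM and rose by 2.35 at 24 h versus 0 h (q = 0.000358 in the authors' deposited table).

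**Figure D4:**
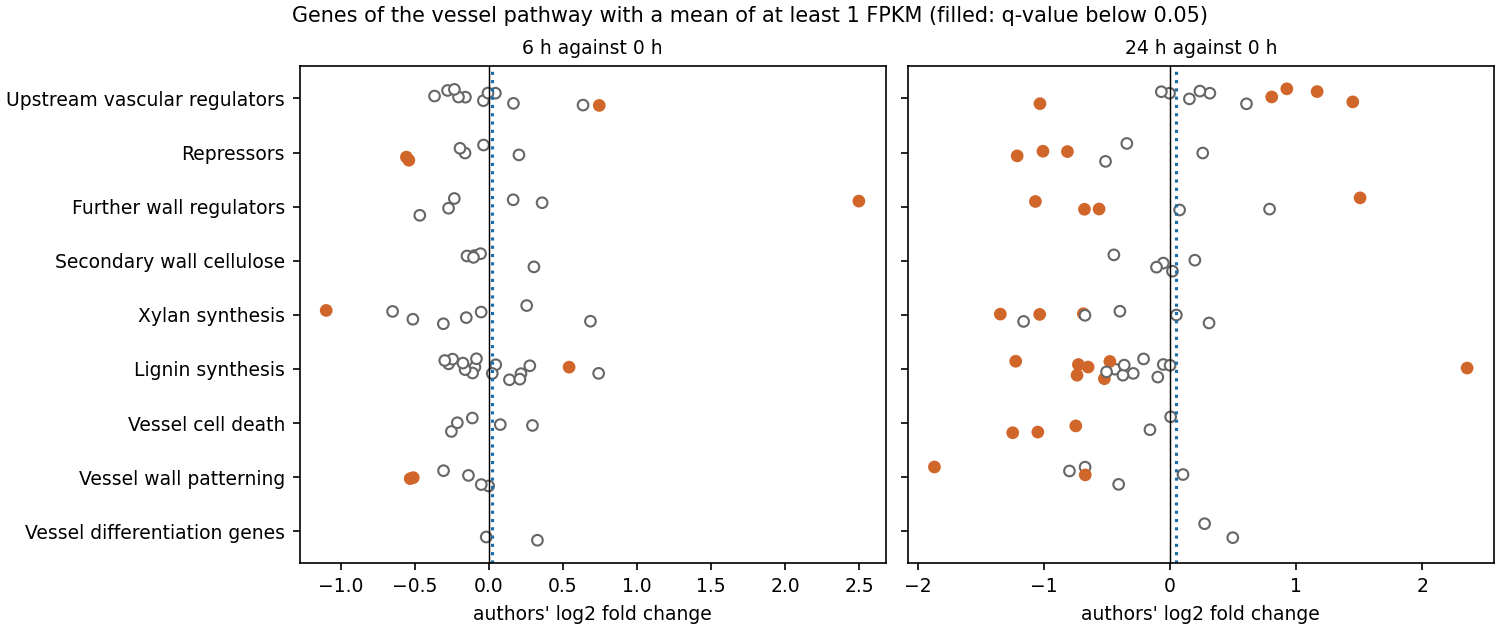
Points give the log2 fold change in the authors' deposited table of each pathway gene with a mean of at least 1 FPKM, filled where the q-value is below 0.05, and the dotted line is the median of all rows above that filter. At 24 h versus 0 h, 21 genes of the 8 pathway lists are called lower and 6 higher, and the 2 vessel members plotted are not called.

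XCP1 stood beside 5 other genes of vessel cell death and protein breakdown, of which 3 were called lower and none higher at 24 h versus 0 h, beside 47.7% of all rows called and 23.8% called lower. XCP2, the closest relative of XCP1, had 18.6, 17.3 and 18.7 FPKM at 0, 6 and 24 h and a log2 fold change of 0.0054 for 24 h versus 0 h (q = 0.988 in the authors' deposited table). XCP1 and XCP2 thus had like levels at each time, and neither was called. The nuclease gene RNS3 fell by 1.25 at 24 h versus 0 h, with 80.6 FPKM at 24 h against 191 at 0 h. The metacaspase gene MC9 fell by 1.05, with 40.8 FPKM against 84.3. BFN1, a nuclease of dying cells, fell by 0.75 (q = 0.0199 in the authors' deposited table). RNS3, MC9 and BFN1 are also known from other dying cells of the root such as the root cap.

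**Figure D5:**
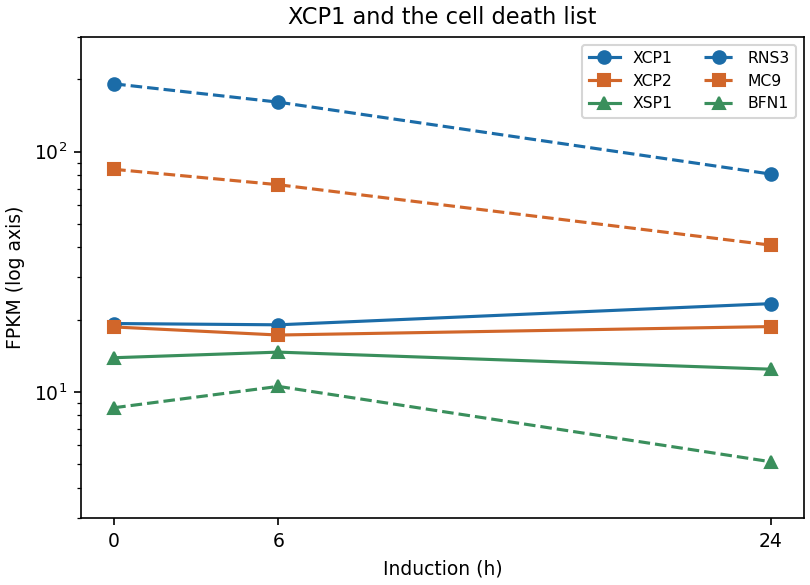
Lines give the pooled FPKM of XCP1 and the 5 genes of the cell death list against hours of induction, on a log axis. RNS3, MC9 and BFN1 have their lowest values at 24 h (80.6, 40.8 and 5.13 FPKM), whereas XCP1 and XCP2 lie between 17.3 and 23.3 FPKM throughout.

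Of 6 genes that place the secondary wall bands, 2 were called lower at 24 h versus 0 h, beside 23.8% of all rows. ROPGEF4, known from the patterning of metaxylem pits, fell by 1.87, with 21.2 FPKM at 24 h against 77.3 at 0 h. Its partner ROPGAP3 fell by 0.67, or -0.41 without the length trend. The 4 other genes of this list were not called. In which root cells ROPGEF4 was expressed here was not tested. Over the 8 pathway lists, 63 of 78 genes lay above the filter. At 24 h versus 0 h, 27 of them (42.9%) were called, against 47.7% of all rows, with 6 higher and 21 lower, where 23.8% of all rows were called higher and 23.8% lower. Their median log2 fold change was -0.37, against 0.05 over all rows. At 6 h versus 0 h, 8 were called (12.7%, against 11.3%), 3 higher and 5 lower, with a median of -0.10 against 0.02, and 3.98% of all rows were called higher and 7.35% lower. At 24 h versus 6 h, 20 were called (31.7%, against 39.4%), 4 higher and 16 lower, where 19.6% of all rows were called higher and 19.8% lower. Markers of other cells moved over the same times. At 24 h versus 0 h, 6 of 6 root hair genes were called lower, with log2 fold changes of -1.61 to -0.74. So were 3 of 6 endodermis genes. In the same comparison 6 of 6 cell division genes were called higher, and the phloem gene above the filter, SUC2, was not called. The phloem gene APL, below the filter, had 0.345, 0.204 and 1.16 FPKM at 0, 6 and 24 h. Its q-value for 24 h versus 0 h was 0.0192 in the authors' deposited table, and no other phloem gene had one below 0.05. The part of these markers' cells in the changes of the pathway genes was not tested.

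Overlap with neighbouring genes touches a few members. No member shared a stretch of 100 bp, the read length, with another member, and VND5 shared 2.68% of such stretches with AT1G08553, a gene on the same strand that it overlaps. VND6 overlaps AT5G62390 on the other strand by 77 bp, and AT5G62390 had 101, 107 and 162 FPKM at 0, 6 and 24 h, far above VND6. VND2 overlaps AT4G36170 by 270 bp, which had at most 0.0833 FPKM. XCP1 overlaps AT4G35360 by 2 bp. Libraries kept strand information per the labels, but whether strand was used in counting is not given in the sources used here.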

How the data were processed

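RNA from roots of 9 samples, 3 at each of 0, 6 and 24 h, was made into strand-specific poly(A) libraries and sequenced as single-end reads of 100 bp, per the labels' protocols. The submitters' processing notes list TopHat2 2.0.13, Cufflinks 2.1.1, Cuffdiff and build TAIR10, with no role or order. The deposited FPKM values are 1 per row and time, combined from the replicates by the authors; the header names no unit, which was read from the values and those tools. The log2 fold changes and the q-values are the authors', per the file headers. The log2 ratio of the FPKM values matched the deposited fold change within 0.001 in at least 99.9953% of rows that were above 0 at both times. NST2, SND1 and NEN4, with values of 0, are not among these rows. The test behind the q-values and any depth per sample are not given in the sources used here.

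Calls needed a q-value below 0.05 and a mean of at least 1 FPKM. Fits with limma, planned for values per replicate, could not be made. Unadjusted p-values were recovered by reading the q-values as 1 Benjamini-Hochberg adjustment over the 53530 tests with a q-value below 1. Of the recovered p-values, 99.7% were whole multiples of 5e-05 within 0.05 of a multiple. All other q-values were left out, and whether those rows were tested is not given in the sources used here. Python 3.11.15 with pandas 2.3.3 and numpy 2.4.6 was used, and recovery and length trend were tested on simulated data. Members and gene lists were chosen with earlier results of these data known. Named pathway genes were up to 2 called with the largest rise and up to 2 with the largest fall per list at 24 h versus 0 h, and CESA4, CESA7 and CESA8. Those named beside them (T5L1, XND1, NST2, SND1, MYB63, IRX9, XCP2, BFN1 and the phloem gene APL) were chosen after their values were seen. The rule to name genes with a like pattern applied to a called member and so named none. Gene models and promoters came from TAIR10.1, which matched 97.8% of single-locus rows. The table has no coordinates, so none were mixed with its build. Alternatives were other filters, limits, adjustments, pseudocounts and scalings, and removal of the trend with transcript length.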

Additional observations from a re-analysis of the deposited data

How the results depend on the processing

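No paired analysis was possible because replicates had been combined before deposit, and leaving out a replicate was not run for the same reason. The count of 0 called members stayed at 0 in 14 of 15 alternatives and was 1 (VND3) without the filter for 24 h versus 6 h. A minimum mean of 5 FPKM, a q-value limit of 0.01 and a minimum absolute log2 fold change of 1 are stricter. They could not raise a count of 0, so their counts add nothing. Adjustment within each comparison kept the filter of 1 FPKM, so it could move at most MYB46 and XCP1. The pathway calls for 6 h versus 0 h fell to 2 with a q-value limit of 0.01 and to 2 with a minimum absolute log2 fold change of 1. That minimum left 14 pathway calls at 24 h versus 0 h and 7 between 24 h and 6 h. These settings are stricter by construction.

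Of 150 alternative values for the members' changes, 144 kept their sign and 6 did not. Quantile normalization gave 0.0041 for XCP1 at 6 h versus 0 h, -0.087 for VND1 and -0.20 for VND7 at 24 h versus 0 h, and -0.014 for MYB46 at 24 h versus 6 h. Removal of the length trend gave -0.0021 for VND7 at 24 h versus 0 h and -0.10 for MYB46 at 24 h versus 6 h. Of 300 values for other named genes 9 changed sign. Length removal gave 0.082 for CESA4 and 0.38 for CESA7 at 24 h versus 0 h, and 0.14 for ROPGAP3, 0.19 for CESA4 and 0.13 for CESA8 at 24 h versus 6 h. Quantile normalization gave 0.070 for VNI2 at 6 h versus 0 h, -0.25 for CESA8 at 24 h versus 0 h and -0.033 for CESA7 at 24 h versus 6 h, and median-of-ratios scaling -0.056 for CESA8 at 24 h versus 0 h. The cause was not tested. Of the 17 called changes of genes named by the rule at 24 h versus 0 h, removal of the length trend moved 3 by over 1.5 times, to -0.36 for PAL1, -0.41 for ROPGAP3 and -1.03 for MYB43, and log2(value + 1) moved 1, SND3, to -0.60. With log2(value + 1) in place of the ratio, the largest member change, VND1 at 24 h versus 6 h, was 0.39 in place of 1.91, so the size of changes below 1 FPKM depends on the scale.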
